A study of Mus musculus with 9 samples.

Results

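The 43 genes described here encode the machinery that copies DNA in S phase, the enzymes that supply its nucleotides, and the E2F factors that transcribe many of these genes. They were chosen by gene symbol from the 55401 genes of the count table, each had a row, and each passed the filter on low counts that 15717 genes passed. They lie on 14 chromosomes. The study asked how gene therapy with miR-22, a microRNA, changes hepatocellular carcinoma (HCC) in mice. Liver RNA of female wild-type mice was sequenced in 3 groups of 3 livers. The shared protocol gives the mice as 6 weeks old at the start, and the strain as FVB/N, although another field of every sample names C57BL/6. Healthy livers came from untreated mice, for which no time of collection is given. Both HCC groups received sleeping beauty transposon plasmids for activated AKT and NRAS by hydrodynamic tail vein injection, which carries plasmids into hepatocytes. The sample descriptions also list a plasmid for activated β-catenin, although the series' own design text names RAS/AKT alone. At 1 week, a single intravenous dose of blank AAV8 (untreated HCC) or of AAV8-miR-22 (miR-22-treated HCC) was given, and livers were collected at 5 weeks, 4 weeks after the virus. Both HCC groups therefore carried the oncogenes and an AAV8 vector, whereas the healthy livers carried neither. In AAV8-miR-22 the microRNA stands behind a CMV promoter, which is active in many cell types.

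Replication is prepared before S phase, when the origin recognition complex with Cdc6 and Cdt1 loads the ring of Mcm2 to Mcm7 onto DNA, a step called licensing. In S phase, Cdc45, the GINS complex and Mcm10 turn that ring into a working helicase, primase and DNA polymerases copy the strands behind it, and the sliding clamp PCNA, opened and closed by replication factor C, holds the polymerases on DNA. Hepatocytes of an adult liver are mostly out of the cell cycle and re-enter it after injury or in a tumor, and their E2F target genes are then transcribed.

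The promoters of the genes are shown first, because some hold a sequence feature that their choice did not use, and hold it more often than all tested genes. RefSeq (GRCm38.p6) gave windows of 300 bases, from 250 before to 50 after the transcription start, for 36 of the 43 genes (42 windows). Mcm4, Gins1, Gins2, Gins4, Prim2, Pole and Rfc2 had no window. An E2F motif (TTTCCCGC, TTTCGCGC, TTTGCCGC or TTTGGCGC on either strand) was found for 15 of the 36 genes and not for 21, a share of 41.7%, against 4.34% of the 11501 tested genes with a window and 2.60% of all 27025 genes in the promoter table. By role, it was found for 7 of 9 licensing genes with a window (Orc1, Cdc6, Cdt1, Mcm3, Mcm5, Mcm6 and Mcm7) and for 0 of 4 nucleotide supply genes. The CCAAT motif, read on either strand, was found for 24 of 36 genes (66.7%) against 42.5% of tested genes. Among 16 mitotic genes with a window, 1 had the E2F motif (6.25%) and 14 had CCAAT (87.5%). A match is a description of letters in the window, not evidence that a factor binds there.

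The windows of 5 genes on which the results turn are printed from 5′ to 3′, with E2F matches in capitals. Mcm6 (chr1:128359656-128359955 on the minus strand) and Mcm5 (chr8:75109259-75109558 on the plus strand) are helicase subunits with 3 and 2 matches, some of them overlapping on the opposite strands of a single stretch. E2f2 (chr4:136172024-136172323 on the plus strand) has 1 match in the first of its 2 windows. Tk1 (chr11:117825965-117826264 on the minus strand) and Mcm10 (chr2:5012742-5013041 on the minus strand), which moved against the other genes, have no full match in these windows. The same holds for 21 genes in all, 10 of which were called higher in untreated HCC. The Mcm10 window ends in TTTGGCG, all but the last letter of TTTGGCGC, so a match that runs past the window would be missed.
Mcm6: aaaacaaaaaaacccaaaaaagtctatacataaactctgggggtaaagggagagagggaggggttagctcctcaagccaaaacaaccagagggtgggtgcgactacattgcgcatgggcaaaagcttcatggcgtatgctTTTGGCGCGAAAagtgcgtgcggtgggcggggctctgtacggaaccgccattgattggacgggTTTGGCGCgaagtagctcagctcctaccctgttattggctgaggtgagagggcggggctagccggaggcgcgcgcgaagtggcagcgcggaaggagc
Mcm5: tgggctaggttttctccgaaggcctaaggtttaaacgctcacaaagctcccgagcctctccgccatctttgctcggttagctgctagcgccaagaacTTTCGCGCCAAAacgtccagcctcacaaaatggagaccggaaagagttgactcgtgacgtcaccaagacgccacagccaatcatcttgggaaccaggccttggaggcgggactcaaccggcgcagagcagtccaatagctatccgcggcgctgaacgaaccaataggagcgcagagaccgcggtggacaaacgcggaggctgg
E2f2: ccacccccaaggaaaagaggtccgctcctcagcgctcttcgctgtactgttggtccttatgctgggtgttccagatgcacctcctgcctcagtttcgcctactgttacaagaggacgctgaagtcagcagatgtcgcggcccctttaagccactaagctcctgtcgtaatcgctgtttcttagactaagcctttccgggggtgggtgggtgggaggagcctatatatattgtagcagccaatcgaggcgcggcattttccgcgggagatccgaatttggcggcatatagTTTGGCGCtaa
Tk1: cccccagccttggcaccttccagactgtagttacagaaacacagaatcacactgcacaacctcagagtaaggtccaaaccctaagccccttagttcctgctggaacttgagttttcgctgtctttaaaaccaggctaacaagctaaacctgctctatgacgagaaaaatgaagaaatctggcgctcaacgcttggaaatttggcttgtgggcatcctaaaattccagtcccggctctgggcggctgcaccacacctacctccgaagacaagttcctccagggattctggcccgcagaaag
Mcm10: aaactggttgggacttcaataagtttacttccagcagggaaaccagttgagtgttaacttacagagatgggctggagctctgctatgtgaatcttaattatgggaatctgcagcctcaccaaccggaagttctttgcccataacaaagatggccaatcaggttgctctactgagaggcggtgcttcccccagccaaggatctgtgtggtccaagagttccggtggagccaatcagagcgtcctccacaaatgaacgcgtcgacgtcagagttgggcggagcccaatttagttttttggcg

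**Figure D1:**
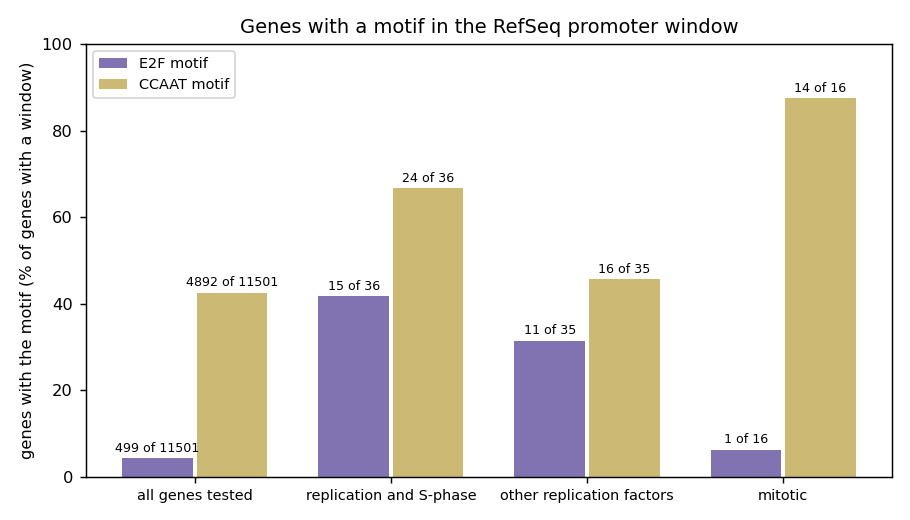
Bars give the percent of genes with at least 1 motif in their RefSeq promoter window, for the E2F motif and for CCAAT, and the numbers above them give genes with the motif of genes with a window. The E2F bar stands at 41.7% for the replication and S-phase genes and at 4.34% for all genes tested, whereas the tallest CCAAT bar, 87.5%, belongs to the mitotic genes.

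Sequencing depth was 16664659 to 23908392 counts per liver. Livers of the same group differed by more than counting error (chi-square divided by its degrees of freedom, 6.13 to 28.4 over genes). Of the 43 genes, 9 averaged under 100 counts per library (Orc1, Cdc6, Cdc45, Gins1, Gins2, Gins3, Rfc4, Fen1 and E2f7), and the lowest value was 6 counts, for Gins2 in a healthy liver. Levels are given in CPM, counts per 1000000 counts of a library, after TMM normalization, and a gene was called higher or lower at a Benjamini-Hochberg adjusted p under 0.05 in edgeR's quasi-likelihood test over all tested genes with a fold over 1.5. No label states from which animals the livers came beyond their number, so the p-values measure the spread between these samples. In RNA from whole liver, fewer cells of a type and less RNA per cell cannot be told apart.

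Levels between genes were compared per kilobase of each gene's canonical transcript (CPM per kb). The order depends on this choice of length, because counts cover all transcripts of a gene. The canonical transcript of Tk1 has 1440 bases and all its exons together 6670, against 1518 and 2400 for Pcna. In healthy livers, Tk1, the thymidine kinase that salvages thymidine, was by this measure the highest of the 43 genes. It stood at 49.0 ± 7.20 CPM per kb (SD, n = 3), above Pcna at 22.2 ± 1.65 and Mcm10 at 12.2 ± 1.22. The lowest were Gins2, a GINS subunit, at 0.150 ± 0.0668 CPM per kb and the repressor E2f7 at 0.179 ± 0.0238, which did not differ by more than their spread. In untreated HCC, Pcna led with 28.9 ± 2.17 CPM per kb, and Tk1 at 10.7 ± 0.992 lay beside the helicase subunit Mcm7 at 10.7 ± 0.934. In miR-22-treated HCC, Pcna stood at 32.9 ± 3.73 and Tk1 came next by this measure at 24.2 ± 2.84 CPM per kb. The subunits Mcm2 to Mcm7, which form a ring with a single copy of each, ranged from 1.53 (Mcm5) to 5.74 (Mcm7) CPM per kb in healthy livers and from 3.96 (Mcm4) to 10.7 (Mcm7) in untreated HCC.

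**Figure D2:**
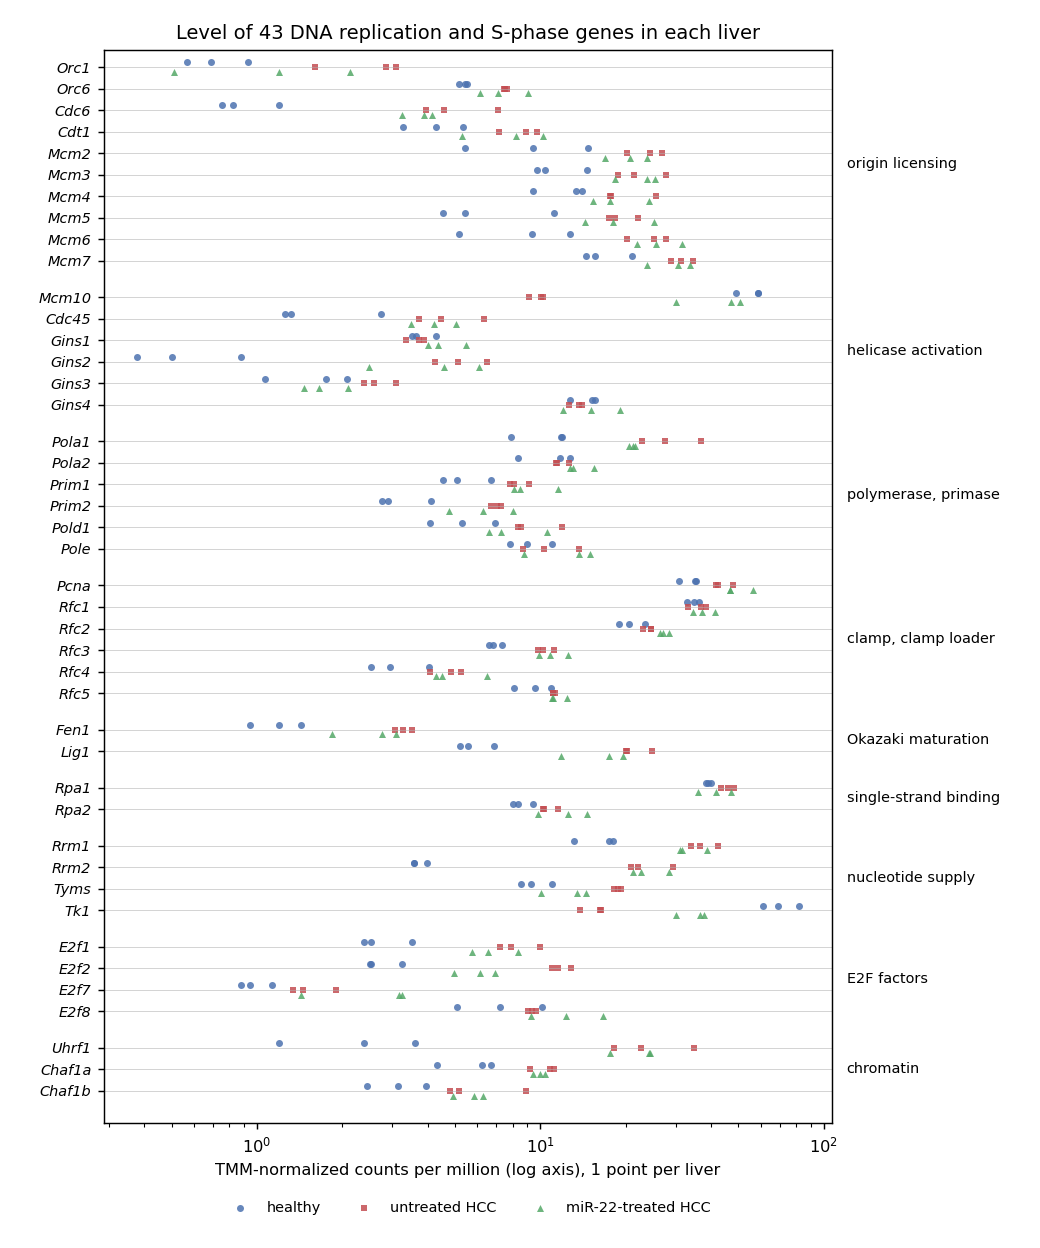
Each point is a liver, placed by its TMM-normalized CPM on a log axis, with the 43 genes in rows grouped by role and the 3 groups offset and marked by color and shape. For most genes the healthy livers lie to the left of both HCC groups, whereas Tk1 and Mcm10 have their untreated HCC livers farthest left, with the healthy livers farthest right for Tk1 and overlapping the treated ones for Mcm10.

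The first comparison, untreated HCC with healthy livers, asked what tumor formation changed. Of the 43 genes, 26 were higher in untreated HCC, 2 were lower and 15 were not called, against 40.8% of all tested genes called in either direction (22.7% higher and 18.1% lower). The median log2 fold change of the 43 genes was 0.86, and that of all tested genes was 0.01. The livers of the groups did not overlap for 34 genes that were higher and 2 that were lower, where 65.3% of all tested genes did not overlap (33.9% higher and 31.4% lower). The 95% interval lay inside a 1.5-fold change either way for 7 genes, against 27.8% of all tested genes. The genes are described by role, and differences between roles were not tested.

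Licensing genes rose almost as a block. Of 10, 9 were higher in untreated HCC, with a median log2 fold change of 1.13, and Orc6 was not called because its 0.49 ± 0.17 (SE; adjusted p = 0.0275, edgeR) stayed under the fold threshold. Cdc6 (ENSMUSG00000017499.15, GRCm39 chr11:98798507-98814766, plus strand), the loading factor that is broken down in resting cells, had the lowest p and the largest rise. It measured 0.754, 1.20 and 0.823 CPM in the healthy livers, 4.59, 7.06 and 3.95 CPM in untreated HCC and 3.88, 3.25 and 4.13 CPM in miR-22-treated HCC. Every HCC liver thus lay above every healthy liver, and the log2 fold change in untreated HCC was 2.49 ± 0.30 (5.60-fold, adjusted p = 1.62e-05, edgeR). The 6 helicase subunits rose by less, from 0.73 ± 0.21 for Mcm4 to 1.44 ± 0.29 for Mcm5 on the log2 scale. Mcm5 measured 4.52, 5.41 and 11.2 CPM in healthy livers and 18.4, 22.2 and 17.5 CPM in untreated HCC, and healthy replicate 3 stood apart from the other healthy livers. Orc1, the largest subunit of the origin recognition complex, rose by 1.76 ± 0.47, and Cdt1, the partner of Cdc6, by 0.99 ± 0.25.

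The genes that activate the helicase went in different directions. Gins2 (ENSMUSG00000031821.11, GRCm39 chr8:121305372-121316043, minus strand) rose the most, from 0.502, 0.378 and 0.878 CPM in the healthy livers to 6.51, 4.25 and 5.11 CPM in untreated HCC, a log2 fold change of 3.14 ± 0.40 (8.79-fold, adjusted p = 2.37e-05, edgeR). Its exons share 2758 bases (67.3% of their length) with Gse1 on the opposite strand, and the libraries were not strand-specific. Gse1 measured 18.4, 18.1 and 17.7 CPM in healthy livers, 26.0, 28.7 and 25.1 CPM in untreated HCC and 17.4, 11.9 and 13.9 CPM in miR-22-treated HCC (log2 fold changes of 0.55 in untreated HCC and −0.88 with miR-22), so its levels and its rise in CPM exceeded those of Gins2. Its part in the counts of Gins2 was not tested. Cdc45, the helicase cofactor, was also higher at 1.43 ± 0.32. The other GINS subunits were not called, with −0.06 for Gins1, 0.71 for Gins3 and −0.11 for Gins4, so the genes of this 4-subunit complex, which holds a single copy of each, did not share a change of the size of Gins2. The 95% intervals of Gins1 (−0.50 to 0.38) and Gins4 (−0.45 to 0.23) lay inside a 1.5-fold change either way.

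Mcm10 (ENSMUSG00000026669.14, GRCm39 chr2:4994516-5017629, minus strand), which binds the helicase and helps to start unwinding, was lower in untreated HCC. It measured 49.0, 58.6 and 58.6 CPM in healthy livers, 9.13, 10.1 and 10.2 CPM in untreated HCC and 47.2, 50.8 and 30.1 CPM in miR-22-treated HCC. The untreated HCC livers lay below every other liver, and the treated livers overlapped the healthy ones. The log2 fold change in untreated HCC was −2.50 ± 0.17 (5.65-fold lower, adjusted p = 1.96e-07, edgeR), opposite in sign to all of Mcm2 to Mcm7. Mcm10 shared no exonic bases with a neighboring gene in the annotation.

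Of the polymerase and primase genes, 4 of 6 were higher and Pola2 (0.11 ± 0.16) and Pole (0.23 ± 0.22) were not called. Pola1, the catalytic subunit of polymerase α that extends the primer, measured 11.9, 11.9 and 7.90 CPM in healthy livers and 27.5, 36.7 and 22.8 CPM in untreated HCC (1.46 ± 0.19, adjusted p = 2.48e-05, edgeR). The primase subunits Prim1 (0.61 ± 0.19) and Prim2 (1.10 ± 0.22) and the lagging-strand polymerase Pold1 (0.82 ± 0.24) were higher too. Pola2, the regulatory subunit of the same polymerase as Pola1, had a 95% interval of −0.23 to 0.45, below that of Pola1 (1.06 to 1.87).

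Of the clamp and its loader, only Rfc3 of 6 genes was called, at 0.59 ± 0.14 (adjusted p = 0.00316, edgeR), a value just past the fold threshold, with 6.59, 7.30 and 6.81 CPM in healthy livers and 9.78, 11.1 and 10.2 CPM in untreated HCC. Pcna, often used as a marker of proliferating cells, went from 30.8, 35.0 and 35.3 CPM to 42.4, 47.7 and 41.7 CPM. Its livers did not overlap and its adjusted p was 0.00750, yet its log2 fold change of 0.38 ± 0.10 fell short of 1.5-fold. Rfc1, the large subunit of the loader, had a 95% interval of −0.15 to 0.27. The single-strand binding genes Rpa1 (0.23 ± 0.10) and Rpa2 (0.32 ± 0.16) were not called either, with 39.1, 39.9 and 38.3 CPM of Rpa1 in healthy livers and 46.0, 48.3 and 43.2 CPM in untreated HCC.

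Both enzymes that finish Okazaki fragments, the short pieces of the lagging strand, were higher. Lig1, the ligase that seals them, measured 5.21, 5.54 and 6.86 CPM in healthy livers and 20.1, 24.8 and 20.3 CPM in untreated HCC (1.88 ± 0.19, 3.69-fold, adjusted p = 3.58e-06, edgeR), and the flap nuclease Fen1 rose by 1.46 ± 0.28. Fen1 shares 59.0% of its exon length with the noncoding gene Gm10143 on the opposite strand, which had at most 14 counts in any library.

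Among the genes of nucleotide supply, 3 rose and 1 fell. Rrm2 (ENSMUSG00000020649.11, GRCm39 chr12:24757811-24764145, plus strand), the subunit of ribonucleotide reductase that is made in S phase, measured 3.58, 3.97 and 3.57 CPM in healthy livers and 21.0, 29.4 and 22.1 CPM in untreated HCC (2.70 ± 0.17, 6.52-fold, adjusted p = 1.11e-07, edgeR). Rrm2 shares 43.3% of its exon length with the noncoding gene Gm59512 on the opposite strand, which has no row among the counts used here. Reads in the shared stretch cannot be told apart. The partner subunit Rrm1 rose by 1.21 ± 0.14, and Tyms, which makes thymidylate anew, by 0.96 ± 0.15. Tk1 (ENSMUSG00000025574.13, GRCm39 chr11:117702770-117717042, minus strand), which makes thymidylate by salvage, went the other way. It measured 81.7, 68.7 and 61.2 CPM in healthy livers, 13.8, 16.4 and 16.2 CPM in untreated HCC and 36.4, 37.8 and 30.2 CPM in miR-22-treated HCC, so the 3 groups did not overlap. The log2 fold change in untreated HCC was −2.19 ± 0.13 (4.55-fold lower, adjusted p = 6.45e-08, edgeR).

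Tk1 starts 330 bases from Afmid, a gene of tryptophan breakdown that is read in the opposite direction, and the pair share 121 exonic bases (1.81% of the exons of Tk1). Afmid measured 108, 108 and 104 CPM in healthy livers, 11.3, 11.1 and 17.1 CPM in untreated HCC and 47.8, 43.8 and 32.6 CPM in miR-22-treated HCC. Its log2 fold change was −3.01 in untreated HCC (adjusted p = 5.20e-08, edgeR), and its order of groups was that of Tk1. Syngr2, which shares 630 exonic bases with the other end of Tk1, changed by −0.06. Of the 43 genes, 9 start within 1000 bases of a protein-coding gene read in the opposite direction. Pole starts 71 bases from the peroxisomal membrane gene Pxmp2. Pxmp2 fell by 2.05 on the log2 scale, whereas Pole stood at 0.23 ± 0.22. The neighbors of the other 7 (Orc1, Orc6, Mcm4, Mcm7, Gins1, Fen1 and Rpa1) changed by −0.48 (Prkdc beside Mcm4, which rose by 0.73) to 0.54 (Tmem258 beside Fen1), each under the fold threshold. Afmid and Pxmp2 were singled out after their values were seen. Because the libraries did not keep strand, reads in shared bases cannot be assigned to either gene by strand.

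Of the E2F factors, the activators E2f1 (1.57 ± 0.22) and E2f2 (2.09 ± 0.18) were higher in untreated HCC, and the repressors E2f7 (0.68 ± 0.37) and E2f8 (0.32 ± 0.24) were not called. E2f2 (ENSMUSG00000018983.9, GRCm39 chr4:135899585-135923368, plus strand) measured 2.51, 2.52 and 3.24 CPM in healthy livers, 12.8, 11.5 and 11.0 CPM in untreated HCC and 6.11, 4.97 and 6.94 CPM in miR-22-treated HCC, with no overlap between any of the groups.

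The chromatin genes were all higher. Uhrf1 (ENSMUSG00000001228.14, GRCm39 chr17:56610275-56630489, plus strand), which brings the maintenance DNA methyltransferase to newly copied DNA, had the largest rise of the 43 genes, from 1.19, 2.39 and 3.62 CPM in healthy livers to 22.7, 34.9 and 18.2 CPM in untreated HCC (3.37 ± 0.32, 10.3-fold, adjusted p = 2.43e-06, edgeR). Chaf1a (0.86 ± 0.17) and Chaf1b (0.97 ± 0.27), subunits of the histone chaperone that works at the fork, rose by less. Chaf1a shares 51.0% of its exon length with Ubxn6 on the opposite strand, which changed by −0.24.

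**Figure D3:**
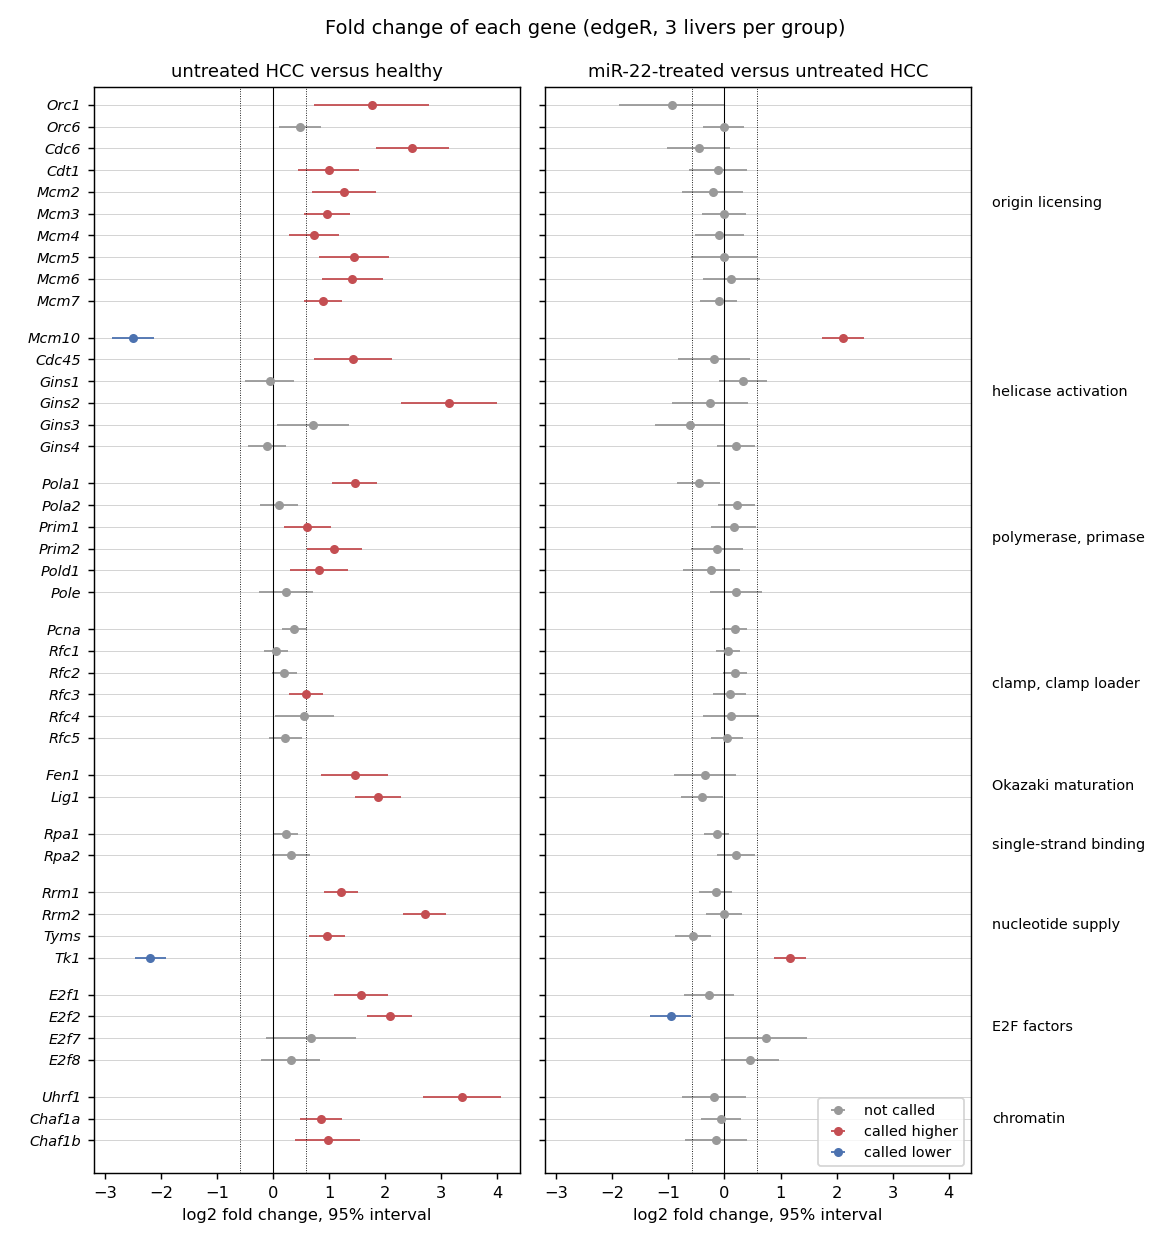
Points give the log2 fold change of each of the 43 genes and bars its 95% interval, for untreated HCC against healthy livers (left) and miR-22-treated against untreated HCC (right), with dotted lines at 1.5-fold and color for the call. On the left, 26 genes lie to the right as called higher and Mcm10 and Tk1 far to the left, while on the right most intervals span 0 and the same Mcm10 and Tk1 are the called higher genes.

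The E2F motif was more frequent among the genes that were higher in untreated HCC. It was found for 13 of 23 such genes with a window (56.5%) and for 2 of 13 other genes (15.4%), and the median log2 fold change was 1.42 with a match and 0.56 without. The genes were too few and too alike in role for this to be more than a description, and Rrm2, among the largest rises, has no match in its window.

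The second comparison, miR-22-treated with untreated HCC, asked what the treatment changed. Only 3 of the 43 genes were called, 2 higher and 1 lower, against 13.8% of all tested genes (8.32% higher and 5.47% lower). The median log2 fold change was −0.07, and that of all tested genes was 0.0020. For 17 of the 43 genes the whole 95% interval lay inside a 1.5-fold change, a share similar to the 41.2% of all tested genes. An unadjusted p under 0.05 (edgeR) was found for 7 of the 43 genes, against 5680 of all 15717 tested genes. The livers of the groups did not overlap for 5 genes that were higher and 5 that were lower, against 39.3% of all tested genes (19.7% higher and 19.6% lower). The other 23 genes that were not called had intervals reaching past 1.5-fold in at least 1 direction, so a change of that size was within the error of their measurement.

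Mcm10 and Tk1, the 2 genes that were lower in untreated HCC, were the 2 that were higher with miR-22. For Mcm10, treated livers measured 42.7 ± 11.0 CPM against 9.79 ± 0.578 in untreated HCC (SD, n = 3), a log2 fold change of 2.12 ± 0.17 (4.35-fold, adjusted p = 2.02e-05, edgeR). For Tk1 they measured 34.8 ± 4.08 against 15.5 ± 1.43 CPM, a log2 fold change of 1.17 ± 0.13 (2.25-fold, adjusted p = 1.68e-04, edgeR). Both comparisons use the same untreated livers, so the opposite signs are not independent of each other. The gene beside Tk1, Afmid, was higher by 1.64 (adjusted p = 1.02e-04, edgeR), and Pxmp2 beside Pole by 1.07, while Pole itself stood at 0.20 ± 0.22.

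E2f2, an activator of replication genes, was the gene that was lower with miR-22. It measured 6.01 ± 0.988 CPM against 11.8 ± 0.925 CPM, a log2 fold change of −0.96 ± 0.17 (1.95-fold lower, adjusted p = 0.00202, edgeR), and every treated liver lay below every untreated one. When the change was tested against a fold of 1.5 itself (edgeR's glmTreat), its adjusted p was 0.120 and the call was lost. The other activator, E2f1, had −0.28 ± 0.21, and the repressors E2f7 and E2f8 had 0.74 ± 0.34 and 0.45 ± 0.24. Tyms came next, with 14.5, 10.1 and 13.5 CPM in treated livers against 18.9, 19.3 and 18.2 CPM. Its livers did not overlap and its adjusted p was 0.0152, but its log2 fold change of −0.56 ± 0.15 missed the fold threshold. With DESeq2's size factors or with upper-quartile normalization, which shift its value to −0.59 and −0.60, Tyms was called lower as well.

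**Figure D4:**
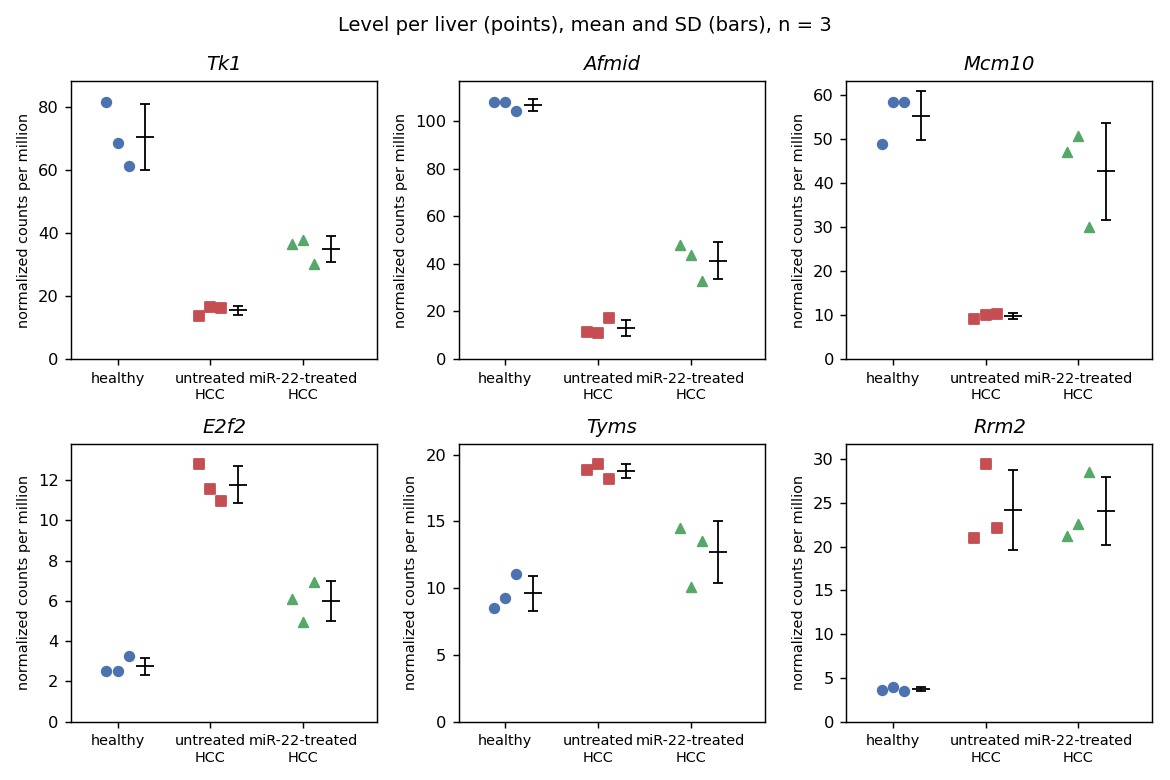
Points give the level (CPM) of Tk1, its neighbor Afmid, Mcm10, E2f2, Tyms and Rrm2 in each liver, and bars the mean and SD of each group (n = 3). Tk1, Afmid and Mcm10 were lowest in untreated HCC, E2f2 and Tyms were highest there, and Rrm2 stood at 24.2 ± 4.59 CPM in untreated and 24.1 ± 3.88 CPM in miR-22-treated HCC.

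The helicase ring itself showed no detectable response. The log2 fold changes of Mcm2 to Mcm7 ran from −0.21 (Mcm2) to 0.12 (Mcm6), and their 95% intervals from −0.76 to 0.63. Summed over the 6 genes, healthy livers held 48.7 to 88.2 CPM, untreated HCC livers 123 to 165 CPM, and miR-22-treated HCC livers 111 to 157 CPM. Rrm2 changed by −0.00 ± 0.15, with an interval of −0.32 to 0.32 that lay inside 1.5-fold. The 3 largest differences that missed the call were those of Orc1 (−0.93 ± 0.44, adjusted p = 0.146), E2f7 (0.74 ± 0.34, adjusted p = 0.135) and Gins3 (−0.62 ± 0.29, adjusted p = 0.146), by edgeR, each with a mean under 100 counts. For Orc1, the treated livers measured 1.20, 0.510 and 2.14 CPM and the untreated ones 2.85, 3.08 and 1.60 CPM, which overlapped.

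The livers within a group did not stand at the same level. Untreated HCC replicate 3 was the highest of its group for 32 of the 43 genes, and miR-22-treated HCC replicate 4 was the highest of its group for 32. Treated replicate 3 was the lowest of its group for 32 genes, and healthy replicate 3 was the highest of its group for 27. The mean log2 (CPM + 1) over the 43 genes lay between 2.83 and 3.12 for healthy livers, 3.57 and 3.80 for untreated HCC, and 3.48 and 3.84 for treated HCC, so the treated livers spanned a wider range than the untreated ones. Without untreated HCC replicate 3 the median log2 fold change of the 43 genes with miR-22 was 0.10, and without treated replicate 3 it was 0.04, so the sign of the median rests on single livers.

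The third comparison, miR-22-treated HCC with healthy livers, shares its livers with the other 2 comparisons. Here 26 genes were higher and 1 was lower, against 24.0% of all tested genes (16.9% higher and 7.05% lower), with a median log2 fold change of 0.79. The 26 became 16 with the replicate number as a block and 11 with glmTreat. The livers did not overlap for 29.0 genes that were higher and 1.0 that was lower, against 48.8% of all tested genes (26.6% higher and 22.2% lower), and 4 intervals lay inside 1.5-fold, against 37.4%. Tk1 was the gene that was lower, at −1.02 ± 0.12 (adjusted p = 5.69e-05, edgeR), and Mcm10 was not called at −0.38 ± 0.16 (adjusted p = 0.0832, edgeR). The 26 genes included E2f7 (1.41 ± 0.36), E2f8 (0.77 ± 0.24) and Rfc4 (0.68 ± 0.24), which were not called in untreated HCC, and left out Orc1, Pold1 and Tyms, which were. None of these 6 genes was called between the HCC groups. Uhrf1 (3.18 ± 0.32), Gins2 (2.88 ± 0.40) and Rrm2 (2.70 ± 0.17) again had the largest rises. The 12 genes called in none of the 3 comparisons were Orc6, Gins1, Gins3, Gins4, Pola2, Pole, Pcna, Rfc1, Rfc2, Rfc5, Rpa1 and Rpa2. For Rfc2 and Rfc5, 24.3% and 41.4% of the exon length is shared with Lat2 and Wsb2 on the opposite strand. Orc1, Cdc45, Pcna, Rfc4 and E2f8 each share between 10.6% and 20.8% with a gene on the opposite strand. Of these, Eif4a2 over Rfc4 and the noncoding Gm2788 over E2f8 changed by −0.59 and −0.65 in untreated HCC. Both stood above Rfc4 and E2f8 in CPM in every liver, and their part in the counts of Rfc4 and E2f8 was not tested.

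Other genes of the cell cycle came from lists written from general knowledge of the pathway, and differences between the lists were not tested. Of 41 other replication factors, 10 (24.4%) were higher and 0 lower in untreated HCC, a share near the 22.7% of all tested genes that were higher. They were led in p by Clspn, a checkpoint mediator at the fork (3.68 ± 0.30), Dbf4, the activator of the kinase that fires origins (2.67 ± 0.28), and Dnmt1, the maintenance methyltransferase (1.17 ± 0.13). With miR-22, 0 of the 41 were called by edgeR, against 13.8% of all tested genes. An unadjusted p under 0.05 was found for 6 of the 41, against 5680 of all 15717 tested genes. The 3 with the smallest p were Dnmt1 (−0.32 ± 0.13), Top1 (−0.24 ± 0.10) and Chtf8 (−0.47 ± 0.19).

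Of 6 S-phase kinase genes, 4 were higher in untreated HCC, led by cyclin A2 (Ccna2, 4.72 ± 0.24), cyclin E1 (Ccne1, 2.76 ± 0.20) and the phosphatase Cdc25a (1.72 ± 0.17). With miR-22, Ccna2 was lower (−0.60 ± 0.17, adjusted p = 0.0239, edgeR), while Cdc25a (−0.58 ± 0.16), Ccne1 (−0.57 ± 0.17) and, in the other direction, cyclin E2 (Ccne2, 0.57 ± 0.19) had adjusted p-values of 0.0185, 0.0290 and 0.0486 and stayed under the fold threshold. Of 10 other E2F and RB genes, 2 were higher and 2 lower in untreated HCC, a share near the 40.8% of all tested genes called, and 2 were higher with miR-22. The pocket protein Rbl2, which represses E2F targets in resting cells, was lower in untreated HCC (−1.19 ± 0.14) and higher with miR-22 (0.82 ± 0.14), as was the E2F partner Tfdp2 (−0.86 ± 0.13 and 0.69 ± 0.13). E2f3 was higher in untreated HCC (1.03 ± 0.16). Of 11 other nucleotide enzymes, 1 was higher and 3 were lower in untreated HCC (36.4%), again near that share, among them Shmt1, which feeds folate carbon to thymidylate (−1.58 ± 0.13), Umps of pyrimidine synthesis (−0.67 ± 0.08) and the dCTP hydrolase Dctpp1 (−0.72 ± 0.11). Shmt1 was the gene of that list that was higher with miR-22 (0.68 ± 0.13).

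By the median of each list, mitotic genes moved further than the replication genes in both comparisons. Single genes could differ: with miR-22, Mcm10 changed by 2.12 and the mitotic genes by −1.19 to −0.23. All 18 were higher in untreated HCC, with a median log2 fold change of 4.27, led in p by Mki67 (3.67 ± 0.17, 12.7-fold), the spindle checkpoint gene Cdc20 (4.41 ± 0.24) and the spindle gene Tpx2 (4.68 ± 0.26). With miR-22, 9 of the 18 were lower and 0 higher, with a median of −0.69. Cdc20 (−1.19 ± 0.18), Tpx2 (−0.83 ± 0.19) and Mki67 (−0.64 ± 0.15) had the smallest p. Mki67 measured 5.46, 5.79 and 5.32 CPM in healthy livers, 71.5, 78.7 and 60.4 CPM in untreated HCC and 44.2, 34.8 and 55.5 CPM in treated HCC, with no overlap between the groups. Summed over the 18 genes, healthy livers held 16.3 to 27.2 CPM, untreated HCC livers 272 to 361 CPM, and treated livers 168 to 245 CPM. The difference between the lists was not tested.

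**Figure D5:**
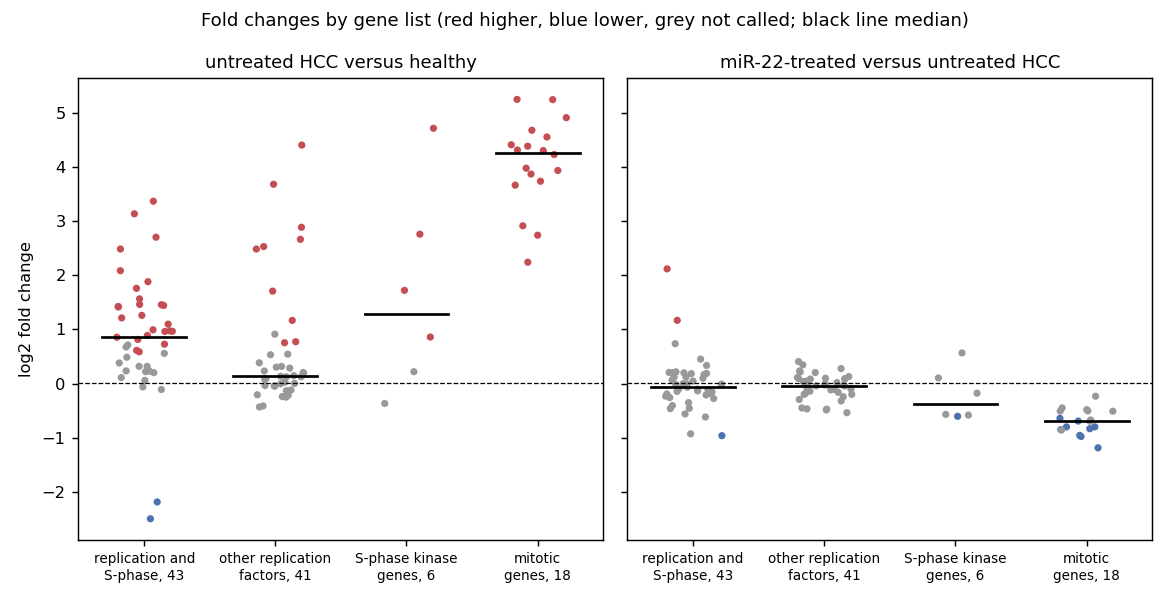
Each point is a gene of the list named below it, placed by its log2 fold change in untreated HCC against healthy livers (left) and in miR-22-treated against untreated HCC (right), with the list's median as a solid line and the median of all tested genes as a dashed line. The mitotic genes have their median at 4.27 on the left and −0.69 on the right, whereas the 43 replication and S-phase genes have theirs at 0.86 and −0.07.

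Markers of cell types moved with the groups. Summed over 6 hepatocyte genes, healthy livers held 128800 to 131000 CPM, untreated HCC livers 52320 to 64970 CPM, and miR-22-treated HCC livers 76880 to 94620 CPM, with 5 of the 6 lower in untreated HCC and 2 higher with miR-22, the same order of groups as Tk1, Mcm10 and Afmid. The 5 ductal genes summed to 29.4 to 41.8 CPM, 3320 to 6203 CPM and 1560 to 2697 CPM in the same order (4 of 5 higher in untreated HCC and 3 lower with miR-22). The 5 stellate and myofibroblast genes summed to 66.6 to 78.8, 239 to 293 and 150 to 203 CPM (3 higher and 1 lower in untreated HCC, 1 higher and 1 lower with miR-22). Macrophage genes summed to 327 to 395, 436 to 471 and 487 to 508 CPM (3 of 6 higher in untreated HCC, 0 called with miR-22), and endothelial genes to 244 to 325, 174 to 213 and 203 to 273 CPM (2 of 5 lower, 0 with miR-22). Neutrophil genes summed to at most 1.63 CPM in healthy livers and 11.7 CPM in HCC, with Ly6g at 3 counts or fewer in every library. T and NK cell genes summed to at most 8.50 CPM, with Cd4 higher in untreated HCC and Nkg7 higher with miR-22 (1 of 6 in each comparison). Jchain, the joining chain of antibodies, was higher in untreated HCC and not called with miR-22. Of erythroid precursor genes, Klf1 measured 4.69 ± 0.756 CPM in healthy livers, 1.10 ± 0.767 in untreated HCC and 2.30 ± 1.13 in treated HCC (SD, n = 3), the order of the group means of Tk1 and Mcm10, and was lower in untreated HCC (−2.05 ± 0.46) but not called with miR-22. Alas2 was higher in untreated HCC (0.96 ± 0.20), and Epb42 and Hemgn were at 3 counts or fewer in every library. The part of these cell types in the levels of the 43 genes was not tested.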

How the data were processed

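RNA was sequenced from 9 whole livers, 3 per group, with paired reads from a kit that does not keep strand. Per the study's methods, the authors used Salmon with GRCm39 to estimate the reads of each transcript and tximport to add them up by gene. The authors deposited whole-number counts per gene, not normalized, for 55401 genes, and those counts alone were tested here. A table of the same genes scaled by the authors was not used. The submitters' processing notes also name FastQC 0.11.7 and DESeq2 1.18. The sample descriptions name both C57BL/6 and FVB/N as the strain, and give a vector dose of 1 trillion genome copies per kg, which is lower than that in the study's methods. Total counts per liver limit the precision of genes with few counts, and the common dispersion between livers was 0.0206.

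Genes were found by symbol. The main test was the quasi-likelihood F test of edgeR 4.0.16 (R 4.3.3), two-sided, on TMM-normalized counts after filterByExpr, fitted to the 3 groups together without covariates, with p-values adjusted by Benjamini-Hochberg over 15717 genes. Genes were called at an adjusted p under 0.05 and a fold over 1.5. Intervals are 95% intervals of the log2 fold change. On simulated counts for miR-22-treated against untreated HCC (15389 genes), edgeR called 66 of 97 genes changed 2-fold and 90 of 99 changed 4-fold, with 5 false calls. The alternatives were DESeq2 1.42.0, limma 3.58.1 with a prior count of 1, other normalizations and filters, other call rules, a fit to the 2 groups compared, a replicate block, and each liver left out in turn.

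Transcript lengths, coordinates and neighbors came from GENCODE M39 on GRCm39, and promoter windows from RefSeq on GRCm38.p6. A head-to-head neighbor starts within 1000 bases on the other strand. The planned search of protein sequences was not run, and some cell type markers are not reported here. The 43 genes and all lists were chosen with earlier results of these data known. Any of the 43 could be named. Values per liver were given for genes called with miR-22 and, in each role, for the gene with the smallest p and that with the largest change in untreated HCC, and of the other lists the 3 genes with the smallest p in each comparison could be named. Values per liver of other genes were added as examples after they were seen. Python 3.11.15 and matplotlib 3.10.9 made the figures.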

Additional observations from a re-analysis of the deposited data

How the results depend on the processing

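The 26 genes higher in untreated HCC than in healthy livers were 19 to 28 under the alternatives that kept every liver, and 22 to 26 when each liver was left out in turn. The 2 lower genes were called under each alternative. With miR-22 against untreated HCC, the 2 higher genes, Mcm10 and Tk1, were called under each alternative run, with log2 fold changes of 1.98 to 2.32 and 1.09 to 1.26. Leaving out each liver gave 2 to 3 higher genes and 1 to 3 lower genes. The extra genes were E2f7 (higher) and Tyms without treated replicate 2, Orc1 and Tyms without treated replicate 4, and Pola1 without untreated replicate 4. The number of lower genes was 2 in place of 1 with DESeq2's size factors, upper-quartile normalization, DESeq2's Wald test and no fold threshold, each adding Tyms, and 0 with edgeR's glmTreat, which tests against a fold of 1.5 itself and gave E2f2 an adjusted p of 0.120. Against healthy livers, the 26 genes higher in miR-22-treated HCC fell to 11 with glmTreat and 16 with the replicate block, and were 21 to 30 when each liver was left out in turn, while the single lower gene, Tk1, stayed in each. Whether the replicate numbers pair the livers was not settled. Deviations of same-numbered HCC livers from their group means correlated at −0.116, −0.116 and −0.227. Within a group the deviations cancel out, so these correlations are not independent of each other. The replicate block left the calls with miR-22 against untreated HCC at 2 higher and 1 lower and gave 22 higher genes in untreated HCC. The cause of these differences was not tested. Scaling moved the median of all genes by under 0.1 on the log2 scale. Among the 43 genes, 9 averaged under 100 counts per library, which limits their precision.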
